A study of Mus musculus with 3 samples.

Results

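The cell cycle genes described here are 34 genes chosen by name. 18 of them, such as Mki67, Ccnb1 and Aurkb, act in G2 phase and mitosis and are called the G2/M members. 15 act in DNA synthesis, such as the Mcm genes and Pcna, and are called the S members. Stmn1, which encodes a protein that destabilises microtubules, was counted in neither sum. All 34 were found by name among the 31053 genes of each library.

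The skin of male C57BL6/J mice, an inbred strain, was injured, and monocytes and macrophages were taken from the wounds on day 3, day 6 or day 10. The 3 groups differ by time alone, with no gene change or drug given in the labels. Each day has 1 droplet single-cell RNA-seq library, made from 2 pooled mice that cannot be told apart. There is therefore no replicate and no test between days, and every comparison is of these 3 libraries. The gates of the isolation and the ages of the mice are not given in the sources used here.

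Kept barcodes, taken as cells, had at least 200 detected genes and under 10% of their unique molecular identifiers (UMIs, counted mRNA molecules) from mitochondrially encoded genes. There were 900, 598 and 1362 of them on days 3, 6 and 10, with 7263942 to 12115163 UMIs a library and median depths of 10629, 11778.5 and 8285 UMIs a cell. The day 6 and day 10 libraries shared 2 kept barcodes, and no other pair shared any. The 12 monocyte markers summed to 4483 to 12112 CPM by day, where CPM is a gene's share of all UMIs of the kept cells on the scale of 1000000 UMIs, and the 17 macrophage markers to 8349.6 to 22168 CPM, while the 8 T cell markers stayed between 0.307 and 2.2 CPM. The 12 conventional dendritic cell markers reached 3613 to 6166 CPM. Most of that sum on each day was from 1 gene, H2-Eb1, an MHC class II chain, so it does not by itself show dendritic cells. The day 6 library stood apart in the 7 red cell and platelet markers, at 1766 CPM against 56.7 and 30.8 CPM on days 3 and 10.

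A dividing cell copies its DNA in S phase with the MCM helicase, the sliding clamp PCNA and enzymes that supply nucleotides. It then passes through G2 into mitosis under cyclin-dependent kinase 1 with cyclins A and B, and leaves mitosis when the anaphase-promoting complex marks the cyclins for destruction. S genes are classic targets of the E2F factors, and many G2/M genes are repressed outside their phase through a cell cycle genes homology region (CHR) bound by the DREAM complex. Most monocytes that enter a wound are no longer dividing, whereas some tissue macrophages and dendritic cell precursors can divide.

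Promoters are shown because E2F and CHR letters were found at different rates in the S and the G2/M members, with exceptions in both. RefSeq start sites on GRCm38.p6 matched 28 of the 34 members, in a window from 250 bases before to 50 bases after the start. The CHR letters TTTGAA, searched on both strands, were in 11 of 15 matched G2/M members (73.3%) and in 1 of 13 matched S members (7.69%), against 20.2% of all 27025 gene symbols and 17.9% of all 32851 promoters. The E2F letters TTTCCCGC, TTTGGCGC, TTTCGCGC and TTTGCCGC, also on both strands, were in 6 of 13 S members (46.2%) and in 1 of 15 G2/M members, Cdk1, against 2.61% of gene symbols and 2.26% of promoters. The letters CCAAT were in 13 of the G2/M and 9 of the S members, against 41.1% of gene symbols. Ccna2, Aurkb, Tpx2, Mcm4, Gins2 and Stmn1 were not matched. Such a match describes the letters and is not a bound site.

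Below are 280 bases of 6 promoters, 5′ to 3′, ending 30 bases after the start, with E2F letters in capitals in Mcm3 (chr1:20820283-20820562, minus strand) and Mcm6 (chr1:128359676-128359955, minus strand), CHR letters in capitals in Top2a (chr11:99024160-99024439, minus strand), Ube2c (chr2:164769679-164769958, plus strand) and Ckap2l (chr2:129297183-129297462, minus strand), and both in Cdk1 (chr10:69352883-69353162, minus strand). In Mcm6 the capitals of the first run join 2 overlapping matches. In Mcm3, whose printed match starts 20 bases after the start, another match lies beyond the printed bases.
Mcm3: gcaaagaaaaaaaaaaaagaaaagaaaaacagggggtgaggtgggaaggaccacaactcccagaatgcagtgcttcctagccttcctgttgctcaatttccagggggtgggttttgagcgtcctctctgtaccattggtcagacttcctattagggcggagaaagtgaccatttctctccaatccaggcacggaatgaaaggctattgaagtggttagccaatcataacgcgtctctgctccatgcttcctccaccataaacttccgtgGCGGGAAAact
Mcm6: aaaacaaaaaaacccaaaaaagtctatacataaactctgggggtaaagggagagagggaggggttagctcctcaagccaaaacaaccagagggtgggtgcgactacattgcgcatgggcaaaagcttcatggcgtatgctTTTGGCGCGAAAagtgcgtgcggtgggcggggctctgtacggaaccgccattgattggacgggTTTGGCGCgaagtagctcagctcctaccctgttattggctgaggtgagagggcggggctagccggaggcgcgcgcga
Cdk1: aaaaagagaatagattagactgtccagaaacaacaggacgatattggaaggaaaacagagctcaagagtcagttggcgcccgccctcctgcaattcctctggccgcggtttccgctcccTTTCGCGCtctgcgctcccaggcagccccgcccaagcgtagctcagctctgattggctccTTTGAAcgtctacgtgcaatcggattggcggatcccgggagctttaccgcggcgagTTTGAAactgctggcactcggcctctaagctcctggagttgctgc
Top2a: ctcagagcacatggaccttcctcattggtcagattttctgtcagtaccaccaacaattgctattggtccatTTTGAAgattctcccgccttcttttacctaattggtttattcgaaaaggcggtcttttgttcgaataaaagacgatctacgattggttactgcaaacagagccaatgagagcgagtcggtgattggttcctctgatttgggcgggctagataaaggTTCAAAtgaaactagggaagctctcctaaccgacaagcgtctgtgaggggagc
Ube2c: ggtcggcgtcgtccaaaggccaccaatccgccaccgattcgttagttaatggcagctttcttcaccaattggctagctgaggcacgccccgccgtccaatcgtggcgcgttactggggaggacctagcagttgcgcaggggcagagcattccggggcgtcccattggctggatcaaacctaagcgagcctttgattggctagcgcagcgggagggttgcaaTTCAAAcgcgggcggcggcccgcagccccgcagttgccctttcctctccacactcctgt
Ckap2l: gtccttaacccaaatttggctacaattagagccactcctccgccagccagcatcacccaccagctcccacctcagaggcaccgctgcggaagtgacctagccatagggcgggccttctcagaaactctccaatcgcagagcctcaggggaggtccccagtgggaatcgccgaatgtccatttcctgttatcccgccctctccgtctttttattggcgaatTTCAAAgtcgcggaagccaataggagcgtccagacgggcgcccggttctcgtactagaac
Ckap2l is shown because its promoter carries the same CHR letters as Top2a and Ube2c, while its UMIs lay in other cells, as described further on.

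Both sets were lowest on day 3 and highest on day 6. The G2/M members held 589, 1577 and 1667 UMIs on days 3, 6 and 10, which was 60.4 CPM (95% exact Poisson interval 55.6 to 65.4), 217 CPM (207 to 228) and 138 CPM (131 to 144). The S members held 1096, 1779 and 2364 UMIs, or 112 CPM (106 to 119), 245 CPM (234 to 257) and 195 CPM (187 to 203). The G2/M sum was 3.60-fold (3.27 to 3.96) higher on day 6 than on day 3 and 2.28-fold (2.07 to 2.51) higher on day 10 than on day 3. The S sum was 2.18-fold (2.02 to 2.35) and 1.74-fold (1.62 to 1.87) higher. From day 6 to day 10 the G2/M ratio was 0.634 (0.591 to 0.679) and the S ratio 0.797 (0.749 to 0.848). For every 100 S UMIs there were 53.7, 88.6 and 70.5 G2/M UMIs on days 3, 6 and 10. All intervals cover counting error only, and the G2/M ones are far too narrow for a difference between days, because single cells hold large parts of the sums. In these pooled libraries fewer cells with the genes and less RNA per cell cannot be told apart from the sums alone.

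A member was counted as higher or lower when its CPM differed at least 1.5-fold between 2 days, with at least 20 UMIs over both. On day 6 against day 3, 17 of 18 G2/M and 12 of 15 S members were higher and none was lower, where 28.6% of the 10963 genes measured were higher and 7.79% lower. Day 10 against day 3 gave 13 G2/M and 13 S members higher and none lower (24.6% and 8.94% of 11289 genes). On day 10 against day 6, 11 G2/M members and 1 S member, Mcm5, were lower, and 1 S member, Ung, was higher, where 5.87% of 11356 genes were higher and 10.3% lower. The median ratio of the G2/M members was 3.29 on day 6 against day 3, that of the S members 2.16 and that of all genes 1.18. On day 10 against day 6 these medians were 0.596, 0.805 and 0.951. The members share cells, so these counts are not independent of each other. Without the 10 cells with the most G2/M UMIs in each library, 15 members were higher and 2 lower on day 6 against day 3, and 4 were lower and 5 higher on day 10 against day 6. Fewer members reached 20 UMIs then, and a member below that counts as neither. The share over all genes was not recomputed for this setting.

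**Figure D1:**
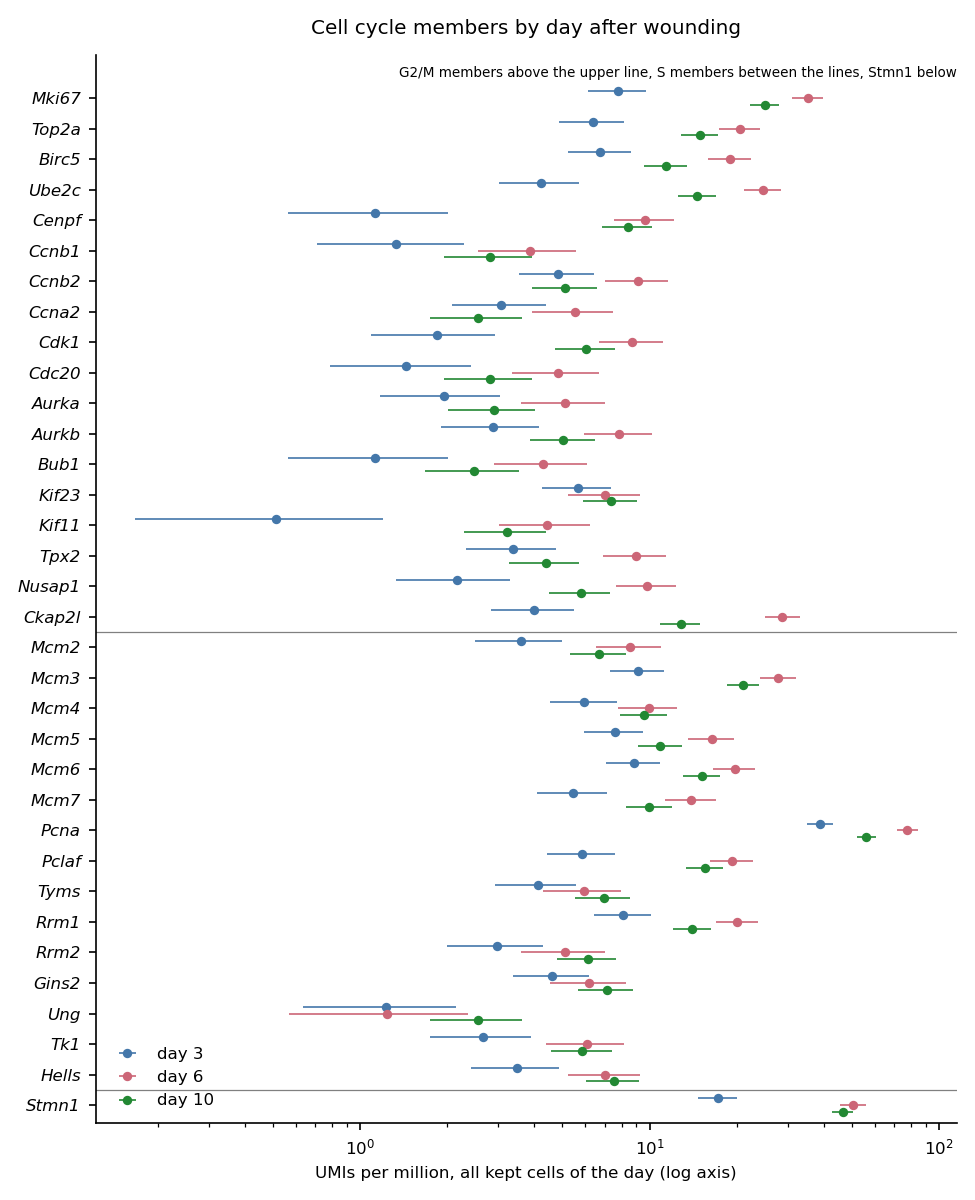
Level of each of the 34 members in CPM over all kept cells of day 3, 6 or 10 (log axis), with 95% Poisson intervals for counting error only. Most G2/M members, above the upper line, are lowest on day 3 and highest on day 6, while Kif23 lies between 5.64 and 7.35 on all 3 days.

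Among the G2/M members, the engine of mitotic entry comes first. Cdk1, the mitotic kinase, had 18, 63 and 73 UMIs on days 3, 6 and 10 (1.84, 8.67 and 6.03 CPM) and was 4.70-fold (2.75 to 8.44) higher on day 6 than on day 3. Ccnb1, for cyclin B1, had 13, 28 and 34 UMIs (1.33, 3.85 and 2.81 CPM), with 18 of the day 6 UMIs in 1 cell. Ccnb2, its relative, had 4.82, 9.09 and 5.12 CPM, so day 10 was level with day 3 at a ratio of 1.06 (0.716 to 1.59). Ccna2, cyclin A2, had 30, 40 and 31 UMIs (3.07, 5.51 and 2.56 CPM). Its day 10 to day 3 ratio of 0.832 (0.487 to 1.42) was the lowest of the 34. Cdk1 and Ccnb1 were thus still higher on day 10 than on day 3, whereas Ccnb2 and Ccna2 were not.

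Cdc20 and Ube2c serve the anaphase-promoting complex, Cdc20 as its activator and Ube2c as its ubiquitin-conjugating enzyme. Cdc20 stood at 1.43, 4.82 and 2.81 CPM. Ube2c had 41, 179 and 177 UMIs (4.2, 24.6 and 14.6 CPM), with 71 of the day 6 UMIs and 95 of the day 10 UMIs in 1 cell each. Bub1, a kinase of the spindle checkpoint, had 11, 31 and 30 UMIs (1.13, 4.27 and 2.48 CPM). All 3 were higher on day 6 than on day 3 and lower on day 10 than on day 6.

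The Aurora kinases and their partners followed. Aurka, the centrosomal kinase, was at 1.95, 5.09 and 2.89 CPM, and Tpx2, its activator on the spindle, at 3.38, 8.95 and 4.37 CPM. Aurkb, the kinase of the chromosomal passenger complex, was at 2.87, 7.85 and 5.04 CPM. Birc5, the survivin subunit of that complex, was at 6.76, 19.0 and 11.4 CPM, with 55 of its 138 day 6 UMIs in 1 cell. All 4 were at least 2.62-fold higher on day 6 than on day 3, and Tpx2 and Aurka were within 1.5-fold of day 3 on day 10.

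The motors and spindle proteins differed among themselves. Kif11, the kinesin that pushes spindle poles apart, had 5, 32 and 39 UMIs (0.512, 4.41 and 3.22 CPM). Its 8.60-fold (3.33 to 28.3) difference between day 6 and day 3 was the largest of all members, with only 5 UMIs on day 3 behind it. Kif23, a kinesin of the midzone needed for cytokinesis, had 55, 51 and 89 UMIs (5.64, 7.02 and 7.35 CPM) and was the only G2/M member within 1.5-fold in every pair of days. Nusap1, which bundles spindle microtubules, was at 2.15, 9.77 and 5.78 CPM, with 18 of its 21 day 3 UMIs in 1 cell. Ckap2l, a spindle protein, had 39, 209 and 155 UMIs (4.0, 28.8 and 12.8 CPM).

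Among chromosome proteins, Mki67, the coat of mitotic chromosomes known as Ki-67, had 76, 256 and 303 UMIs in 29, 61 and 89 cells (7.79, 35.2 and 25.01 CPM). Top2a, the topoisomerase that untangles sister chromatids, had 62, 149 and 181 UMIs (6.35, 20.5 and 14.9 CPM), but its day 6 to day 3 ratio of 3.23 became 0.876 without the 10 cells with the most G2/M UMIs in each library. Cenpf, a kinetochore protein, had 11, 70 and 102 UMIs (1.13, 9.64 and 8.42 CPM) and was the G2/M member with the largest day 10 to day 3 ratio, 7.47 (4.0 to 15.4).

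The S members moved within a narrower range. All 6 Mcm genes, subunits of the replicative helicase, were at least 1.67-fold higher on day 6 than on day 3. Mcm3 had the largest ratio among the S members other than Pclaf, with 89, 202 and 255 UMIs (9.12, 27.8 and 21.0 CPM), a 3.05-fold (2.36 to 3.96) difference. Mcm4, with 5.94, 9.91 and 9.57 CPM, had the smallest of the 6. Mcm2 was at 3.59, 8.54 and 6.69 CPM, Mcm6 at 8.81, 19.7 and 15.2 CPM, and Mcm7 at 5.43, 13.9 and 9.99 CPM. Mcm5 had 7.58, 16.4 and 10.9 CPM and fell outside 1.5-fold again between day 6 and day 10 (ratio 0.665, 0.515 to 0.859).

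Pcna, the clamp that holds polymerases on DNA, had 379, 565 and 680 UMIs in 275, 289 and 468 cells (38.8, 77.8 and 56.1 CPM). Pclaf, a small protein that binds the clamp, had 57, 140 and 188 UMIs but in 10, 13 and 22 cells only (5.84, 19.3 and 15.5 CPM). Gins2, a subunit of the helicase's GINS partner, was at 4.61, 6.2 and 7.1 CPM. Hells, a chromatin remodeller, was at 3.48, 7.02 and 7.51 CPM. Pcna and Pclaf were thus both highest on day 6, and Gins2 and Hells on day 10.

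For the nucleotide enzymes, Rrm1 and Rrm2 are the large and small subunits of ribonucleotide reductase, and Tyms and Tk1 make thymidylate. Rrm1 was at 8.1, 20.1 and 14.0 CPM, while Rrm2 was at 2.97, 5.09 and 6.11 CPM. Tyms had 4.1, 5.92 and 6.93 CPM and Tk1 2.66, 6.06 and 5.86 CPM. Ung, a glycosylase that removes uracil from DNA, had 12, 9 and 31 UMIs (1.23, 1.24 and 2.56 CPM), the fewest of any member. Tyms, Gins2 and Ung were the 3 S members not 1.5-fold higher on day 6. Stmn1 had 168, 366 and 563 UMIs (17.2, 50.4 and 46.5 CPM), a 2.93-fold (2.43 to 3.53) higher level on day 6 than on day 3, and its day 10 to day 6 ratio was 0.922 (0.807 to 1.05).

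The G2/M sums came from very few cells. On day 3, 1 cell held 183 of the 589 G2/M UMIs and 3 cells held 55.9% of them. On day 6 the top cell held 306 UMIs and 6 cells held 69.9%, and on day 10 the top cell held 329 and 6 cells held 55.5%. A cell at the middle of each library had no G2/M UMI. 3, 4 and 5 cells were enough to reach 50 percent of the G2/M UMIs of days 3, 6 and 10. The S members needed 52, 31 and 53 cells for that, and 50%, 70.7% and 56.9% of cells had an S UMI against 19.6%, 29.4% and 21.3% with a G2/M UMI.

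**Figure D2:**
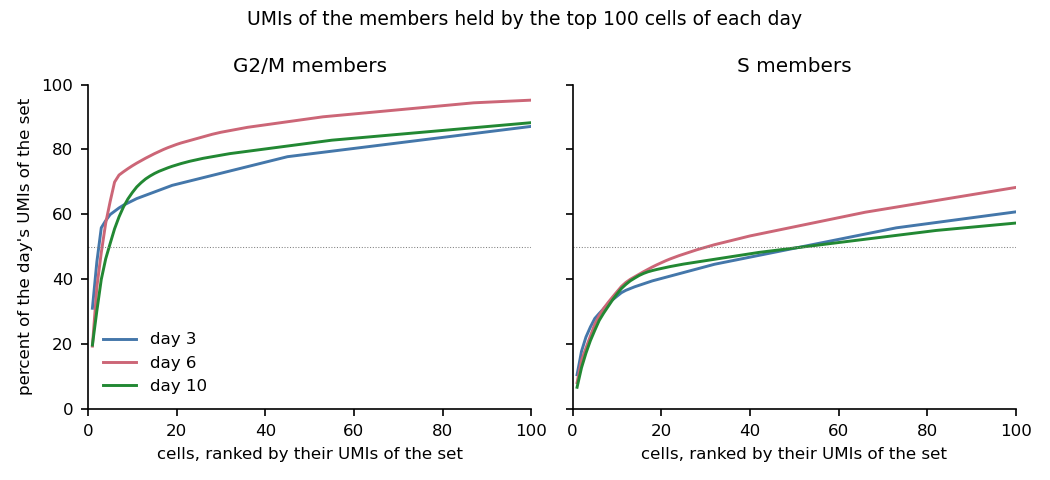
Cumulative percent of a day's G2/M UMIs (left) and S UMIs (right) held by the 100 cells with the most UMIs of that set, ranked from the highest. The G2/M curves pass 50% within 5 cells on every day, and the S curves only after 31 to 53 cells.

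Cells with UMIs of at least 3 different G2/M members are called carriers here. There were 9 of 900, 16 of 598 and 22 of 1362, and none was called a doublet by Scrublet. They were 1.0%, 2.68% and 1.62% of the cells. The carriers held 63.2%, 75.5% and 74.6% of the G2/M UMIs, 73.2%, 71.9% and 70.3% of the Stmn1 UMIs, and 23.1%, 30.2% and 38.2% of the S UMIs of the 3 days. They were deeper than the other cells, with a median of 20370 against 9371 UMIs. With every cell thinned to 2000 UMIs, and 21, 47 and 90 shallower cells left out, the shares were 0.341% (95% Clopper-Pearson interval 0.0704 to 0.994), 1.63% (0.75 to 3.08) and 0.865% (0.432 to 1.54) on 3, 9 and 11 cells. These intervals treat the cells of 1 library as draws from it, and the order of the days in these shares was not tested.

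Cells with at least 3 S members were more frequent, at 4.44%, 18.6% and 7.49%, and most of them were no G2/M carriers: of 253 such cells over all days, 30 were. After thinning the S shares were 1.14% (0.547 to 2.08), 1.81% (0.874 to 3.31) and 1.02% (0.545 to 1.74). The cells with 3 S but not 3 G2/M members had a median depth of 16751 UMIs, and the part of that depth in their number was not tested beyond the thinning. Outside the carriers the S level was still 88.3, 179 and 125 CPM by day, and the G2/M level 22.7, 55.9 and 36.4 CPM.

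How far a member keeps company with the others was measured as the percent of its UMIs in cells with at least 3 other G2/M members. For the G2/M members the median was 83.4%, and 13 of 18 were at or above 70%. Ccna2 (97.0%), Nusap1 (96.9%) and Cenpf (96.7%) were almost confined to those cells, and Aurka (49.5%), Kif23 (55.4%), Mki67 (60.5%) and Aurkb (61.6%) were spread further. Ckap2l, at 20.3%, was the exception. For the S members the median was 41.1%. Pclaf (95.3%) and Rrm2 (90.7%) lay with the G2/M genes, whereas Pcna (10.7%), Mcm4 (16.7%) and Mcm3 (22.2%) lay mostly elsewhere. Pcna had UMIs in 1002 cells without 3 G2/M members, and Pclaf in 18.

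**Figure D3:**
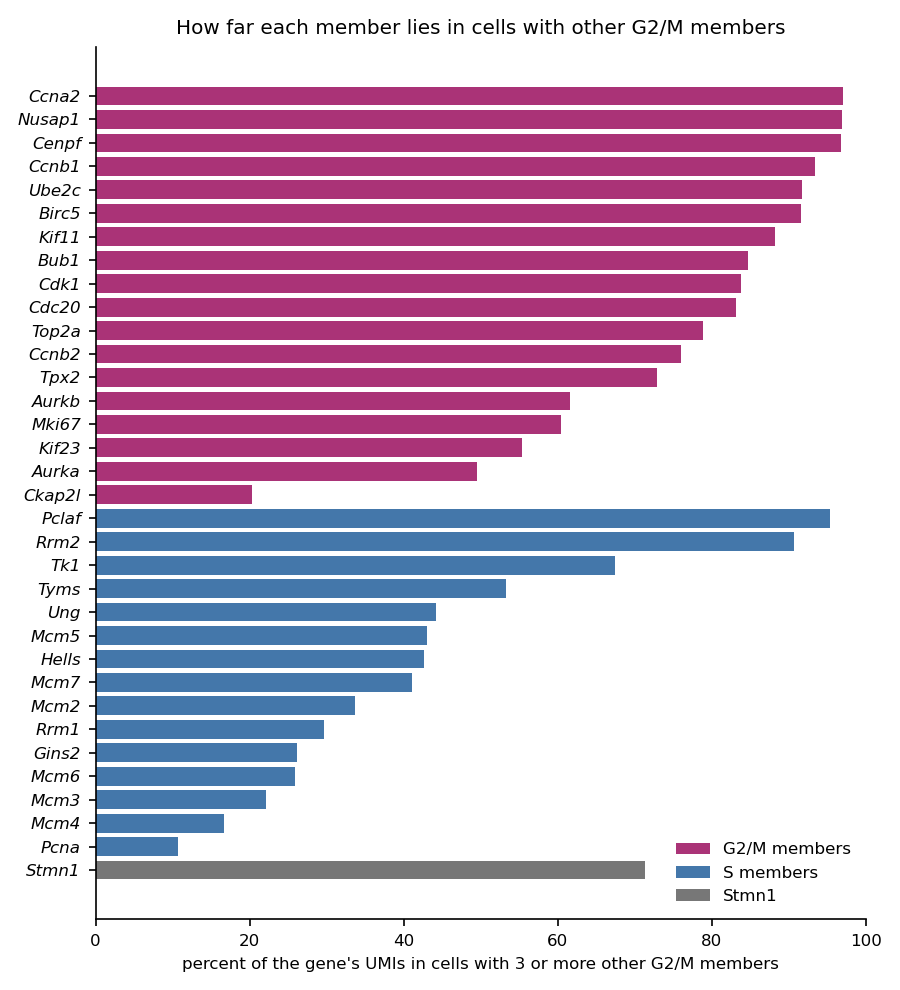
Percent of each member's UMIs, over all days, that lay in cells with at least 3 other G2/M members. G2/M members range from 20.3% (Ckap2l) to 97.0% (Ccna2), S members from 10.7% (Pcna) to 95.3% (Pclaf), and Stmn1 is at 71.3%.

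Among the 17 cells with at least 50 G2/M UMIs (the next had 41, and the limit was set after seeing the values), the balance of the 2 sets varied widely. 5 cells had more S than G2/M UMIs, with 91 to 159 S and 51 to 95 G2/M UMIs. The other cells, 12 in number, had 61 to 329 G2/M and 3 to 145 S UMIs. In 4 of them there were at least 10 times as many G2/M as S UMIs. The extremes were a day 10 cell with 329 G2/M and 3 S UMIs and a day 10 cell with 76 and 159.

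Since the sums made this split, the member levels in it are a description. The 4 members with the largest ratios between the groups were Ube2c, Cenpf, Ccnb2 and Cdc20. Ube2c was at 933 CPM in the 12 cells and 76.9 CPM in the 5, Cenpf at 386 and 38.4 CPM, Ccnb2 at 255 and 25.6 CPM, and Cdc20 at 170 and 12.8 CPM. Cdk1, at 255 and 199 CPM, Ccna2, at 207 and 141 CPM, and Birc5, at 613 and 397 CPM, were nearer to equal. Aurkb was the only G2/M member with the lower level in the 12, at 150 against 199 CPM. All S members were lower in the 12 cells, Mcm2 most of those with at least 20 UMIs (36.9 against 173 CPM) and Rrm1 least (159 against 218 CPM). Outside the members, Ccne2, the cyclin E2 of S phase entry, had 21 UMIs in the 5 cells and 6 in the 12, and Plk1, the mitotic polo kinase, had 3 and 39.

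**Figure D4:**
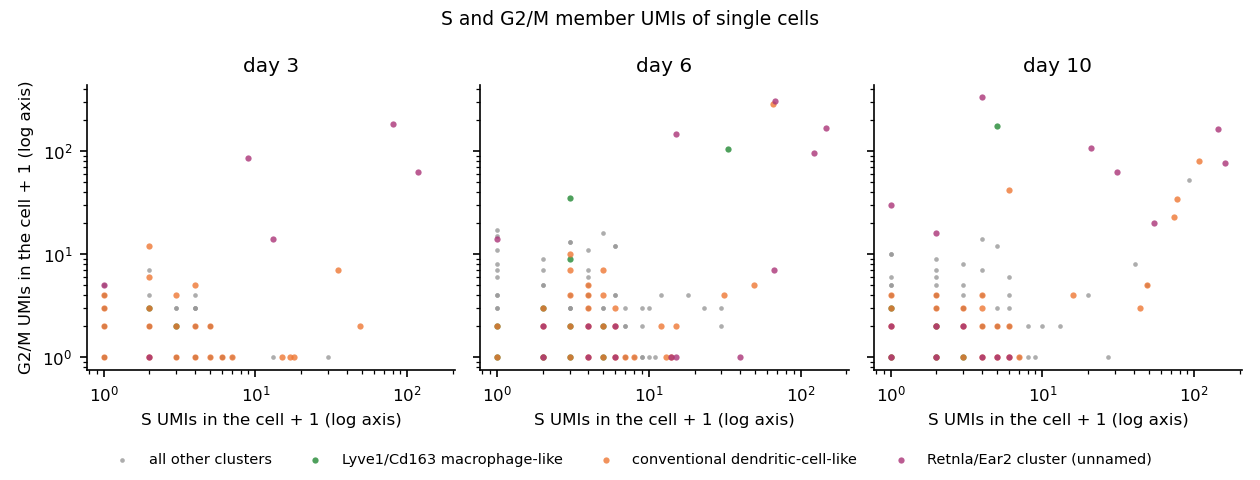
S UMIs against G2/M UMIs of each kept cell, both plus 1 on log axes, for days 3, 6 and 10, with 3 clusters in colour and the others in grey. The few cells with many G2/M UMIs spread from 3 to 159 S UMIs, while other cells to the right of each panel have many S but few G2/M UMIs.

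To see which myeloid cells carry the members, cells of all days were clustered without the 164 genes of the cell cycle lists. Clusters were named from marker lists by a rule set after seeing the data. 7 clusters led by genes such as C1qa, Mmp12, Ly6c2, Cxcl10, Pdgfb, Chil3 and Lyve1 were monocyte/macrophage-like, with 2337 cells together. The others were a Cd209a cluster called conventional dendritic-cell-like (442 cells), a Ccr7 cluster called mature dendritic-cell-like (22 cells), 9 endothelial-like cells and a cluster of 50 cells. That cluster was led by Retnla, Ear2, Lyz1 and the replication-linked histone Hist1h2ap. It was left unnamed because members such as Stmn1, Ube2c, Pclaf and Top2a were among its 10 leading genes although the clustering did not use them.

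The 50 unnamed cells, 1.75% of the kept cells, held 49.1% of all G2/M UMIs and 22.1% of all S UMIs, at 1919 and 1179 CPM. 19 of them were carriers, and the other 31 cells held 9 G2/M UMIs (17.7 CPM). Carriers are defined by G2/M members, so a low level without them follows in part from that choice. Its cells were deep, with a median of 19457 UMIs. After thinning to 2000 UMIs 14 of the 50 cells (28%, 16.2 to 42.5) still had 3 G2/M members, against 4 of 438 in the Cd209a cluster (0.913%, 0.249 to 2.32), 4 of 34 in the Lyve1/Cd163 cluster (11.8%, 3.3 to 27.5), 1 of 352 in the Ly6c2 cluster and 0 of 525 in the C1q cluster (upper Clopper-Pearson limit 0.7%). In the mature dendritic-cell-like cluster 0 of 21 had them (upper limit 16.1%). The interval of the Lyve1/Cd163 cluster overlaps that of the unnamed cells. Histone genes and other genes that follow the members took part in the clustering. When 416 genes of these kinds and of the cell cycle lists were left out, a choice made after seeing the data, an unnamed cluster of 46 cells led by Retnla, Lyz1 and Ear2 held 43 of the 50 cells. It had 13 carriers, 30.6% of all G2/M UMIs and 14.6% of all S UMIs, and the Cd209a cluster then had 17 carriers and 32.9% of the G2/M UMIs.

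The Lyve1/Cd163 cluster, marked by genes of resident dermal macrophages, had 34 cells, 4 of them carriers, and 1022 CPM of G2/M but 217 CPM of S members. Of its 335 G2/M UMIs, 175 were in 1 day 10 cell with 4 S UMIs and 104 in 1 day 6 cell. Without the carriers the G2/M level was 49.6 CPM. In the C1q cluster, the largest with 614 cells, 1 cell was a carrier, and G2/M stood at 25.4 CPM and S at 179 CPM. The Ly6c2 and Chil3 clusters, with 363 and 229 monocyte-like cells, had 1 and 2 carriers, 24.9 and 20.8 CPM of G2/M and 84.4 and 65.0 CPM of S members. S levels were thus low in both monocyte clusters and in the Cxcl10 cluster (55.8 CPM), and higher in the C1q and Pdgfb (199.6 CPM) macrophage clusters, also with the carriers left out (54.4 to 84.6 CPM in the first 3 and 169 and 146 CPM in the last 2). The clusters differ in their days, with 303 of the 363 Ly6c2 cells from day 3 and 412 of the 614 C1q cells from day 10. The S order was also seen within a day, but with intervals that in part overlapped. On day 10 the C1q and Pdgfb clusters had 156 (141 to 171) and 222 (199 to 246) CPM of S members, against 80.5 (61.3 to 104) in the Chil3 and 77.0 (48.8 to 116) in the Ly6c2 cluster. On day 6 the C1q cluster had 197 CPM (177 to 219), against 117 (80.9 to 165) in the Ly6c2 and 87.4 (54.8 to 132) in the Cxcl10 cluster. The lower values rest on 22 to 59 UMIs. Intervals overlapped for the Cxcl10 cluster on day 10, at 133 CPM (70.9 to 228) on 13 UMIs, and the C1q and Pdgfb clusters. They also overlapped for the Pdgfb cluster on day 6, at 153 CPM (120 to 192), and the Ly6c2, Cxcl10 and Chil3 clusters. The Chil3 cluster was then at 64.6 CPM (21.0 to 151) on 5 UMIs. On day 3 the C1q cluster had 412 CPM (309 to 537) in 13 cells. The Pdgfb cluster, at 124 CPM (76.8 to 190), overlapped the Ly6c2 cluster, at 81.9 CPM (71.5 to 93.3). The Cxcl10 and Chil3 clusters were at 49.4 and 58.8 CPM on day 3.

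**Figure D5:**
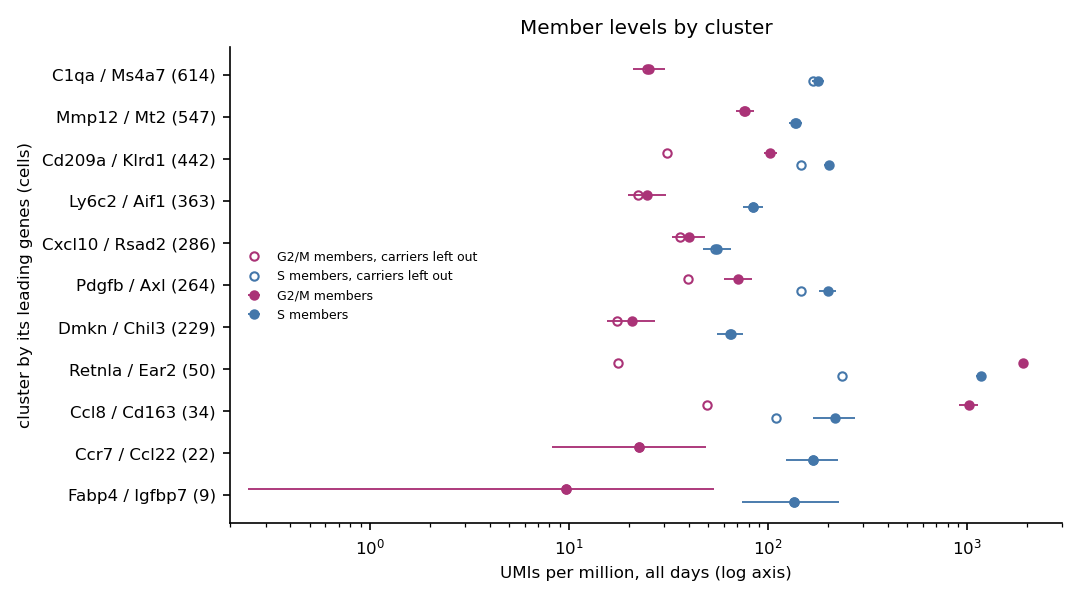
G2/M and S level of each cluster in CPM over all days (log axis), with 95% Poisson intervals for counting error only. Open circles leave out the carriers, cells with at least 3 different G2/M members. The Retnla/Ear2 cluster stands at 1919 for G2/M and falls to 17.7 without its 19 carriers.

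Dendritic-cell-like cells were set against monocyte/macrophage-like cells within each day. The G2/M level was 38.5 against 21.8 CPM on day 3, 163 against 103 CPM on day 6 and 91.6 against 69.0 CPM on day 10, ratios of 1.77 (1.33 to 2.33), 1.58 (1.38 to 1.82) and 1.33 (1.14 to 1.54). The order did not hold up. Without the day 6 cells that carried markers of other classes the day 6 ratio was 0.403, and with the 50 unnamed cells counted as monocyte/macrophage-like the ratios were 0.581, 0.665 and 0.606. The S ratio was 2.06 (1.79 to 2.36), 1.12 (0.993 to 1.25) and 1.66 (1.51 to 1.83), on S UMIs spread over many more cells, and the dendritic-cell-like cells were deeper (median 15442.5 against 8548 UMIs). The S ratio was not recomputed under these changes. On day 6 the unnamed cells held 512 S UMIs (1228 CPM) beside 793 in the monocyte/macrophage-like cells. On days 3 and 10 they held 216 and 429 S UMIs beside 564 and 1299. The size of the S ratio thus depends on where the unnamed cells are counted. Whether its order would change on any day was not computed.

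A pair of the top day 6 cells did not look like monocytes, macrophages or wound dendritic cells. The cell with 287 G2/M UMIs had 95 UMIs of Cd207 (langerin), 64 of Epcam and 20 of Cldn1, markers of Langerhans cells, the dendritic cells of the epidermis, and lay in the Cd209a cluster. The cell with 167 had 22 UMIs of Nkg7, 14 of Klrb1c and 16 of Ncr1, markers of killer-type innate lymphocytes, and no UMI of Lyz2 or Csf1r. In all, 12 kept cells had at least 3 markers of another class at 10 or more UMIs each, 9 of them on day 6. Without those cells the G2/M sum was 2.62-fold (2.37 to 2.9) higher on day 6 than on day 3, and the day 10 to day 6 ratio was 0.871 (0.807 to 0.941). The count of members lower on day 10 against day 6 went from 12 to 2 then, and 5 were higher. The 5 Langerhans markers summed to 8.92, 86.9 and 50.8 CPM on days 3, 6 and 10. The 7 natural killer markers summed to 164, 296 and 201 CPM. Both were highest on the day with the highest G2/M sum. Klrd1, 1 of those 7, was also a leading gene of the Cd209a cluster, so their sum is not a measure of natural killer cells. By the rule above, 1 kept cell had natural killer markers. With the 12 cells left out, day 6 stayed the highest day of the 3 for the G2/M and S sums.

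The other 15 cells with at least 50 G2/M UMIs had UMIs of H2-Eb1 in 14 cases, and the last had C1qa and Apoe. Among the 14, a day 6 cell had only 12 UMIs of H2-Eb1 beside 70 of C1qa and 99 of Apoe. A day 10 cell had 10 of H2-Eb1 beside 80 of C1qa and 286 of Apoe. Of the carriers, 8 of 9 on day 3, 13 of 16 on day 6 and 19 of 22 on day 10 had a UMI of H2-Eb1, an MHC class II chain, against 36.1%, 51.0% and 39.7% of the other cells, which were shallower. Its level in carriers was 6469 against 2765 CPM on day 3, 4535 against 5214 CPM on day 6 and 4776 against 3328 CPM on day 10, so it was not higher on day 6. Ccr2, the receptor for monocyte entry, was found in 9, 13 and 20 of them, or 100%, 81.2% and 90.9%, against 89.2%, 54.0% and 51.2% of the other cells. Its level ratio was 0.96 (0.817 to 1.12) on day 3, 1.51 (1.3 to 1.74) on day 6 and 1.65 (1.48 to 1.83) on day 10. Retnla, a secreted protein of type 2 activation, was at 998, 205 and 1538 CPM in the carriers of days 3, 6 and 10, against 14.1, 189 and 430 CPM in other cells, from 3, 5 and 7 carriers. Of the carriers' Retnla UMIs, 173 of 209 on day 3 and 375 of 707 on day 10 were in 1 cell each. The day 6 ratio of Retnla was 1.09 (0.844 to 1.38). Ly6c2, high in inflammatory monocytes, was nearly absent from day 3 carriers, at 23.9 against 582 CPM, and Chil3 was at 38.2 against 1546 CPM. On day 6 the Ly6c2 level was 162 against 54.1 CPM, with 55 of the 56 carrier UMIs in the cell with natural killer markers.

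Ckap2l departed from the other G2/M members. 317 of its 403 UMIs were in cells that were no carriers, where it made up 30.8% of all G2/M UMIs, and 43.7% of those of day 6. It was found mostly in the Mmp12 cluster (44.2 CPM outside carriers) and the Cxcl10 cluster (23.9 CPM), against 1.5 CPM in the C1q and 0.6 CPM in the Ly6c2 cluster. In the Mmp12 cluster 221 UMIs were of Ckap2l, while Top2a had 8, Ube2c 1 and Nusap1 1. Ckap2l lies on chromosome 2 (129268210 to 129297212, minus strand, GENCODE vM21 on GRCm38), and the next gene on the same strand is the cytokine gene Il1a (129299610 to 129309972), upstream of it with 2397 bases between them.

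Of 128 cells with Ckap2l but fewer than 3 other G2/M members, 100 had an Il1a UMI, which was 78.1%, where 13.1% of all such cells had one. The Ckap2l level was 70.1 CPM in the 369 cells with Il1a and 1.69 CPM in the 2448 without, a ratio of 41.4 (29.7 to 58.9), at median depths of 10267 and 9195.5 UMIs. It was 46.1, 50.4 and 26.5 on days 3, 6 and 10. For 10 other G2/M members with enough UMIs the same ratio ran from 0.342 to 2.61 with a median of 0.844. Counts under 3 UMIs were set to 3 in these ratios, which raised the low end. Aurkb, the lowest, had 2 UMIs in the cells with Il1a, and Ube2c had 0. Whether reads of a transcript of Il1a were counted for Ckap2l was not tested. With Ckap2l left out the G2/M sum was 3.34-fold (3.02 to 3.7) higher on day 6 than on day 3 and 2.21-fold (2.01 to 2.45) on day 10.

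The highest of those 10 ratios belonged to Mki67. In the Mmp12 cluster Mki67 had 102 UMIs outside carriers, in 49 of 544 cells (20.7 CPM), against 5.35 CPM in the C1q cluster and 10.3 CPM in the Cd209a cluster. The 16 G2/M members other than Ckap2l and Mki67 had 55 UMIs there (11.1 CPM), no more than in the C1q (17.8 CPM) or Ly6c2 (18.3 CPM) cluster. Both genes were found in 9 cells, as 11.1% of the 81 cells with Ckap2l and 8.64% of the rest had Mki67. Cells outside the carriers have fewer than 3 different G2/M members, so few UMIs of the others beside Mki67 follow in part from that choice. With the cluster's 3 carriers included, Mki67 had 103 UMIs, Tpx2 11, and Top2a and Kif23 8 each. Mki67 UMIs in that cluster thus came with few UMIs of the other mitotic genes apart from Ckap2l.

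Other genes of the cycle were taken from lists chosen by function. Of 44 mitosis and cytokinesis genes, 40 were measured on day 6 against day 3, with 25 higher and 1 lower, and of 27 replication genes 23, with 15 higher and none lower, where 28.6% of all genes were higher and 7.79% lower. On day 10 against day 3 the counts were 22 higher and 2 lower of 38, and 14 higher and none lower of 24, where 24.6% of all genes were higher and 8.94% lower. Aspm and Cenpe, of the spindle pole and the kinetochore, had the largest ratios (6.98, 2.14 to 36.0, and 6.85, 2.94 to 19.5), and Pola1 and Prim1, of the primase complex, the largest among replication genes (3.09 and 2.91). Going the other way, Lmnb1, lamin B1 of the nuclear envelope, was at 180, 91.8 and 71.1 CPM and Pttg1, securin, at 44.5, 33.6 and 27.8 CPM. Neither shared the day pattern of the members. Cdc6, a loading factor for the helicase, and Pold1, a polymerase subunit, were within 1.5-fold.

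Among 11 G1 cyclins and kinases 4 were higher and 2 lower on day 10 against day 3, too few genes to read against the 24.6% and 8.94% of all genes. Myc, a growth factor-driven transcription factor, went from 4.92 to 18.6 and 14.4 CPM and Ccne2 from 0.922 to 1.65 and 1.65 CPM, on 9, 12 and 20 UMIs. Ccnd3, cyclin D3, fell from 138 to 91.0 and 63.7 CPM, and Ccnd2 was at 46.6, 71.2 and 29.5 CPM. Of 20 E2F, RB and DREAM genes, 19 were measured, 9 higher and none lower, against the same 24.6% and 8.94%. Tfdp2, a partner of E2F factors, was 2.87-fold and Rbl2, the pocket protein p130 of DREAM, 2.36-fold higher, while E2f4 and E2f2 were within 1.5-fold.

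For brakes of the cycle, 17 genes were listed and 15 measured, with 2 higher and 2 lower on day 10 against day 3, no larger a share higher than the 24.6% of all genes (8.94% lower). Gadd45a, a stress-induced arrest gene, went from 33.1 to 73.2 and 97.2 CPM, and Gadd45b from 888 to 626.5 and 398 CPM. Cdkn2d, an inhibitor of CDK4 and CDK6, was at 113, 59.1 and 69.3 CPM and Ccng1, a p53 target, at 20.1, 31.1 and 32.1 CPM. Of 11 receptors and ligands of myeloid growth 9 were measured, with Csf1r, the receptor for M-CSF, 1.58-fold higher, its ligand gene Csf1 2.80-fold lower (31 UMIs on day 10) and Csf3r 1.78-fold lower. Il4ra, a receptor chain for IL-4 and IL-13, was within 1.5-fold.

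Carriers were compared with other cells of all days for genes that did not define them, where 34.2% of 11768 genes were at least 1.5-fold higher and 13.2% lower in carriers. All 26 measured replication genes and 42 of 43 mitosis genes were higher, with median ratios of 11.0 and 43.7 against 1.22 for all genes. Counts under 3 UMIs were set to 3 here, and the carriers held far fewer UMIs than the other cells. This raised the ratios of genes with few or no carrier UMIs. Csf2, with 0 carrier UMIs and 11 elsewhere, got a ratio of 7.56, though it had too few UMIs to be counted. The 34.2% and the 1.22 may thus be too high and the 13.2% too low. The size of this effect was not computed. Foxm1, the factor that drives mitotic genes, was at 29.6 against 0.498 CPM and Mybl2, its partner, at 25.6 against 0.178 CPM. Of the brakes, 9 of 15 were lower and 3 higher. Cdkn1a, the inhibitor p21, was at 258, 171 and 194 CPM in carriers of days 3, 6 and 10 against 605, 444 and 562 CPM in other cells, 2.75-fold lower over all days. Btg1, an antiproliferative gene, was 2.83-fold lower, Gadd45a 12.2-fold lower on 6 carrier UMIs, and Cdkn2c, an inhibitor that is itself an E2F target, 11.7-fold higher. The growth receptors gave 0 higher and 3 lower of 9. The carriers' depth and cluster differ from those of other cells, as given above, and their part in these ratios was not tested.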

How the data were processed

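Mouse wound monocytes and macrophages were profiled with the 10x Chromium platform, 1 library for each of day 3, day 6 and day 10. The deposited matrices hold UMI counts per gene and barcode, raw whole numbers not normalised by the authors, made with Cell Ranger 3.0.2 on mm10 according to the submitters' processing notes. Annotation and strand setting of the counting are not given in the sources used here. The 34 members and all gene lists were chosen with earlier results of these data known, and the rule that names clusters, with its clause that leaves a cluster led by cell cycle or histone genes unnamed, was set after seeing the data.

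Barcodes with at least 200 genes and under 10% mitochondrial UMIs were kept. UMIs were summed per day and given as CPM, with exact Poisson 95% intervals. Ratios have exact conditional binomial intervals, and shares Clopper-Pearson intervals. All cover counting error only. No test was run, because each day has 1 library, and the size of a ratio takes its place. A ratio needed 20 UMIs over both sides, and under 3 UMIs were set to 3. All 34 members are named, and of each other list the 2 largest and 2 smallest day 10 to day 3 ratios. Other genes named in the carriers or clusters were chosen after their values were seen. Thinning drew 2000 UMIs a cell without replacement.

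For clustering, each cell's counts were brought to a total of 10000 and logged. The 2000 most variable genes without the 164 genes of the cell cycle lists gave 30 principal components (scanpy 1.11.5, scikit-learn 1.9.0). Leiden clusters were cut at a resolution of 0.8 on a graph of 15 neighbours (leidenalg 0.10.2). A cluster was called monocyte/macrophage-like with at least 5 of 37 such markers at 50 CPM and at or above their level elsewhere. Another class needed 3 of its markers at 50 CPM, in 25% of cells and at 4 times the level elsewhere. Scrublet called 12, 6 and 5 doublets, which were kept. TMM factors came from edgeR. The ratio code was tested on simulated counts. Promoters are RefSeq's on GRCm38.p6. Alternatives covered cell filters, scaling, doublets, top cells, members left out, thresholds, thinning and clustering.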

Additional observations from a re-analysis of the deposited data

Results flagged for a closer look

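Barcodes left out by the mitochondrial limit also carried the members. Among those with at least 200 genes, 4 barcodes of day 3, 17 of day 6 and 17 of day 10 had at least 3 different G2/M members. These counts were flagged because they were above a fixed limit of 3 barcodes, in data that the comparisons do not use. Their G2/M levels were 35.1, 207 and 162 CPM (50, 387 and 290 UMIs), at median depths of 2379.5, 3153 and 2049 UMIs, and the single barcode with the most held 8, 61 and 38. Their S levels were 102, 183 and 135 CPM. The levels had the same order of days as in the kept cells, with day 6 highest for both sets. No group of libraries is large enough for a search for outlying samples.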

How the results depend on the processing

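Each day has 1 library, so no library could be left out within a day, and a few cells limit every G2/M value. No paired analysis was possible because each day has 1 library and no test was run. TMM factors lowered the log2 ratios of all genes by 0.15 for day 10 against day 3 and by 0.23 for day 6 against day 3 (0.09 higher for day 10 against day 6). The G2/M ratios became 2.06 and 3.06 and the S ratios 1.57 and 1.85. Without the 10 top G2/M cells of each library the G2/M ratios were 2.55 (day 6 to day 3) and 0.828 (day 10 to day 6). The members higher were then 16 on day 10 against day 3, 15 on day 6 against day 3 (2 lower) and 5 on day 10 against day 6 (4 lower). The day 6 to day 3 ratio of Top2a became 0.876, and the day 10 to day 6 ratios of Birc5 and Ccnb2 1.57 and 1.02. The dendritic ratios became 1.31, 0.661 and 0.782. In monocyte/macrophage-like cells only, the G2/M ratios to day 3 were 3.17 (day 10) and 4.74 (day 6) and the S ratios 1.92 and 2.38. There 17 members were higher and 1 lower on day 6, and 3 higher and 6 lower on day 10 against day 6. Birc5 and Ube2c had ratios of 1.59 and 1.26 in that pair, and Aurkb one of 0.955 on day 10 against day 3. Shares of carriers were 0%, 0.509% and 0.19% there.

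With Stmn1 added to the G2/M sum the day 10 to day 6 ratio was 0.688, and without Pcna the S ratio of day 10 to day 3 was 1.89. A minimum of 50 UMIs left 0 members higher on day 10 against day 6. A 2-fold limit left 17 higher on day 10 against day 3 and 3 lower on day 10 against day 6. Unthinned shares were 1.0% and 1.62% on days 3 and 10. The dendritic ratios were 8.48, 3.74 and 4.86 at a Leiden resolution of 0.4, and 0.552 (day 6) and 0.588 (day 10) when cell cycle genes were clustered on. Settings chosen after seeing the data follow. With genes that follow the members left out of the clustering the dendritic ratios were 5.77, 2.0 and 1.99, and with the unnamed cluster counted as monocyte/macrophage-like 0.581, 0.665 and 0.606. Without the cells with markers of other classes the G2/M ratios were 2.62 and 0.871, the S ratios 1.96 and 0.89, and 5 members were higher and 2 lower on day 10 against day 6. Birc5, Bub1 and Rrm2 then had ratios of 1.21, 1.26 (day 10 to day 6) and 0.994 (day 6 to day 3), and the day 6 dendritic ratio was 0.403. The cause was not tested for any of these. The other 145 recomputed sums, counts, shares and class ratios stayed within the interval of the reported value or, for counts, within 1.5-fold of it. Of the single-member ratios 688 stayed within it, 66 left it in the same direction or from an uncalled value, and 9 reversed. Class ratios were not recomputed under other cell filters, which would need new clusters.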
